A study of Mus musculus with 8 samples.

Results

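Cadherins and protocadherins of SN4741 cells were described here, chosen as every gene of the deposited feature lists whose symbol is Cdh followed by a number or begins with Pcdh. This rule gave 92 genes, 23 cadherins and 69 protocadherins, of 31053 genes in all. The symbol Pcdha11 stands on 2 gene identifiers, and both were kept. The data are single-cell RNA-seq (scRNA-seq) of 8 libraries, with 4 replicates at the permissive temperature (37°C) and 4 at the non-permissive temperature (39°C). The cells at 37°C grew in medium with 10% fetal bovine serum, and those at 39°C had been held for 48 hours in medium with 0.5% serum, so temperature, serum and time in culture changed together and cannot be told apart. SN4741 is labelled as a wild-type neural precursor line. It was established as a clone from embryonic mouse substantia nigra carrying a temperature-sensitive T antigen under a tyrosine hydroxylase promoter, and cells at both temperatures carry that transgene. Nothing in the labels says that the libraries came from separate cultures, so the p-values below measure the spread between libraries only.

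Cadherins are membrane proteins that bind neighbouring cells through calcium-dependent extracellular repeats. Classical cadherins hold adherens junctions together through catenins, whereas most protocadherins lack the catenin-binding tail and act in cell recognition, sorting and signalling. In the nervous system, the alpha, beta and gamma protocadherins are expressed from a large gene cluster in which each first exon has its own promoter, and neurons choose combinations of these promoters that give each cell a surface identity.

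After the study's limits on cells, 18351 of 19125 cells remained, 985 to 3494 per library, with 17166686 to 29633818 unique molecular identifier (UMI) counts per library. One library at 39°C, replicate 1, stood apart, with the fewest cells (985) and a median of 16665 UMIs per cell against 6676 to 9886 in the other libraries at 39°C. No pair of libraries shared more than 5 cell barcodes. Markers of the labelled cell type were detected in part and moved in opposite directions. Nes had means of 467 and 108 CPM at 37°C and 39°C (counts scaled to 1000000 per library), a log2 fold change of -2.11. Sox2 had means of 55.4 and 76.5 CPM (0.47). Sox1, Pax6, Msi1 and Fabp7 had at most 12 UMIs each over all libraries. The collagen genes Col1a1 (means of 1027 and 575 CPM at 37°C and 39°C) and Col1a2 (678 and 182) were abundant. The 7 mesenchymal markers, which also hold Acta2, Tagln and Pdgfrb, summed to 2076 to 2169 CPM at 37°C and 842 to 885 at 39°C. Of the same list, Col3a1 had means of 11.9 and 1.01 CPM, and Thy1 had 3 UMIs at 37°C and 1 at 39°C. The pan-neuronal list summed to 164 to 197 CPM at 37°C and 77.3 to 97.5 at 39°C. This was mostly Stmn2 (means of 112 and 52.9 CPM) and Map2 (51.4 and 29.7), with Tubb3 (15.4 and 8.39). Rbfox3 had 7 and 11 UMIs at 37°C and 39°C, Syt1 had 4 and 3, Snap25 had 0 and 1, and Dcx had 0 UMIs. The epithelial list summed to 87.2 to 105 and 23.2 to 30.7 CPM, mostly Krt19 (means of 92.1 and 19.8 CPM) with Krt14 (5.91 and 5.41), and Epcam had 2 UMIs. The lists for glial, endothelial, muscle and immune cells stayed at or below 34.0 CPM in every library, and Olig2, Sox10, Tie1 and Myod1 had 0 UMIs. These marker lists moved with temperature together with the genes below, and their part in the results was not tested.

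Expression of the family was concentrated in very few genes. The 92 members held 46135 UMIs at 37°C and 49040 at 39°C. Only Pcdh19 and Cdh13 averaged over 100 CPM across the libraries, 19 members averaged 1 CPM or more, 21 had no UMI in any library, and 19 others had 1 to 7 UMIs in all. The members without a UMI were Cdh5, Cdh7, Cdh8, Cdh9, Cdh10, Cdh12 and Cdh20 of the type II cadherins, Pcdh11x, Pcdhb1, and 12 genes of the alpha cluster. CPM values are on TMM-normalised library sizes. The kit reads each transcript at its 3′ end, so the counts were not divided by gene length, and an order of members by level is an order of UMIs.

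**Figure D1:**
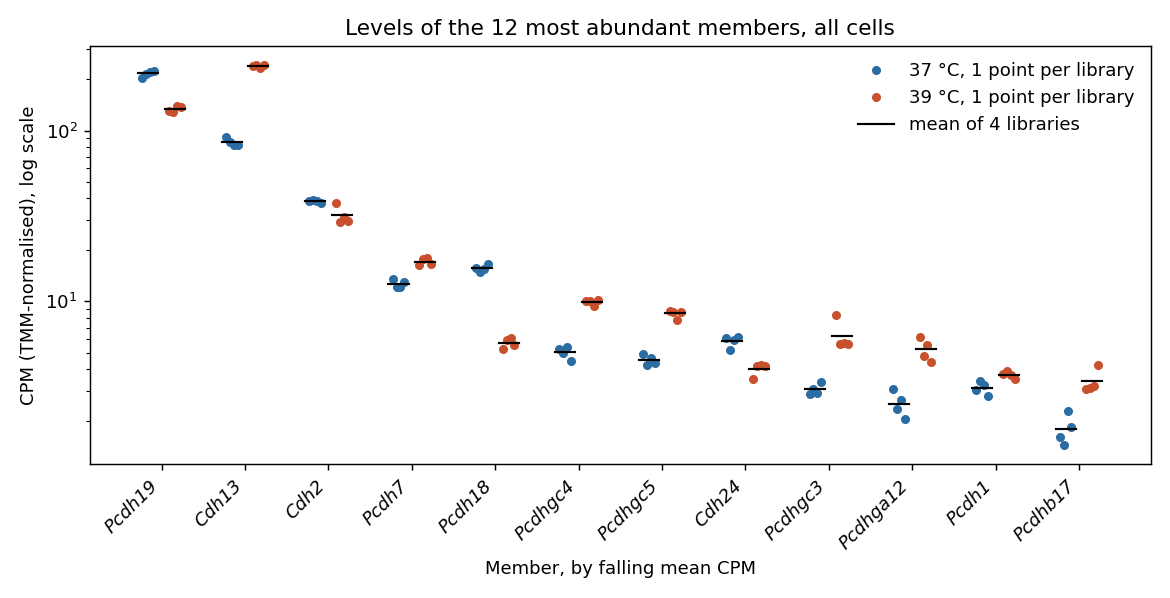
Levels of the 12 members with the highest mean CPM, one point per library on a log axis, with blue for the 4 libraries at 37°C and orange for the 4 at 39°C, and a black line at each mean. Pcdh19 lay between 203 and 225 CPM at 37°C and between 128 and 139 at 39°C, and Cdh13 passed in the other direction from 82.0 to 91.5 up to 233 to 242.

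To ask which members differed between the temperatures, UMI counts of all cells were summed per library and every gene averaging 1 count or more over the libraries was tested with edgeR's quasi-likelihood test and Benjamini-Hochberg adjustment. Of the 92 members, 52 passed this filter, among 15810 genes tested. A member high at 1 temperature passes the filter more easily than one that is low at both, so the counts cover the tested members and not the whole family. At an adjusted p under 0.05, 31 members were higher and 4 lower at 39°C, and 17 did not pass the test. Of all genes tested, 31.5% were higher and 30.5% lower. No library of 37°C lay within the range of the 39°C libraries for 26 members that were higher and 3 that were lower, where the shares of all genes were 28.7% and 28%. When an adjusted p under 0.01 was asked for together with a change of more than 1.5 on the log2 scale, called the limits of size below, 2 members were higher and 0 lower, against 2.21% and 3.62% of all genes. None was lower under the limits of size, and the 4 that were lower at an adjusted p under 0.05 by edgeR are described below.

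Type I cadherins form classical adherens junctions. Cdh2 (N-cadherin, the main neural classical cadherin) was the only abundant one of the 5. Its level was 38.8, 39.0, 38.5 and 37.4 CPM in replicates 1 to 4 at 37°C and 37.7, 29, 31.1 and 29.4 CPM at 39°C. Replicate 1 at 39°C lay within the range of the 37°C libraries, and the other 3 lay below it. The log2 fold change was -0.28 (SE 0.065), with an edgeR adjusted p of 0.00087, and it was -0.37 without replicate 1 of 39°C. Cdh1 (E-cadherin, the epithelial type I cadherin) had 12 UMIs at 37°C and 5 at 39°C, and Cdh15 (M-cadherin of muscle) had 30 and 15, and neither passed the test. Cdh3 (P-cadherin) had 3 UMIs in all, and Cdh4 (R-cadherin) had 1.

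Type II cadherins are the classical cadherins that sort neuronal groups in the embryo. Of 13, only Cdh6, Cdh11, Cdh22 and Cdh24 were tested. Cdh24 gave 6.10, 5.15, 5.96 and 6.18 CPM at 37°C and 3.52, 4.2, 4.21 and 4.16 CPM at 39°C, with no overlap, and fell by 0.53 on the log2 scale (SE 0.096, edgeR adjusted p 8.6e-05). Cdh6 moved the other way, from a mean of 0.926 to 1.75 CPM (log2 fold change 0.90, edgeR adjusted p 0.00013), without overlap. Cdh11 (OB-cadherin, a mesenchymal cadherin) had 23 and 18 UMIs and Cdh22 a log2 fold change of -0.34 with an edgeR adjusted p of 0.26. Cdh5 (VE-cadherin, which defines endothelial junctions) had 0 UMIs.

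Cdh13 (T-cadherin, ENSMUSG00000031841, chromosome 8, 118283733 to 119324921 in GRCm38) is anchored to the membrane by a lipid and has no cytoplasmic tail, and it binds adiponectin. It gave 91.5, 85.7, 82.0 and 82.7 CPM at 37°C. At 39°C it gave 238, 241, 233 and 242 CPM. Every library at 39°C stood far above every library at 37°C. The log2 fold change was 1.48 (SE 0.048, edgeR adjusted p 3.2e-15). Among the remaining cadherins, Cdh26, found at contacts of epithelial and immune cells, had means of 1.80 ± 0.084 (SD, n = 4) and 2.90 ± 0.225 CPM (log2 fold change 0.69, edgeR adjusted p 8.1e-05). Cdh16, Cdh17 and Cdh23, the last a tip-link protein of hair cells, had 3, 2 and 15 UMIs in all.

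Delta protocadherins are encoded outside the cluster and are known in axon growth and cell sorting. Pcdh19, a delta-2 member in which mutations cause an epilepsy, was the most abundant member at 37°C. It gave 203, 215, 220 and 225 CPM at 37°C and 131, 128, 139 and 137 CPM at 39°C. The 2 ranges were far apart, and Pcdh19 fell by 0.69 on the log2 scale (SE 0.048, edgeR adjusted p 2.3e-10). Pcdh18, also of the delta-2 group, gave 15.7, 14.8, 15.4 and 16.6 CPM at 37°C and 5.28, 5.91, 6.12 and 5.51 CPM at 39°C. Every library at 39°C lay under 7 CPM, and Pcdh18 fell by 1.44 on the log2 scale (SE 0.072, edgeR adjusted p 1.8e-12). The other delta-2 members, Pcdh8, Pcdh10 and Pcdh17, had 11, 3 and 16 UMIs in all, and none was called. Of the delta-1 group, Pcdh7 gave 13.5, 12.1, 12.1 and 13.0 CPM at 37°C and 16.2, 17.7, 17.9 and 16.5 at 39°C, without overlap, and rose by 0.44 (SE 0.062, edgeR adjusted p 4.6e-06). Pcdh1 rose by 0.26 (edgeR adjusted p 0.044), from 3.11 ± 0.274 to 3.71 ± 0.162 CPM (SD, n = 4), a call lost when any 1 of 7 libraries was left out. Pcdh9 had means of 1.72 and 1.46 CPM and did not pass the test (adjusted p 0.34). Pcdh12, Pcdh15 and Pcdh20 had 2, 4 and 1 UMIs.

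The promoters of Pcdh19, Pcdh18, Cdh24 and Pcdh7 are shown because they belong to the 3 members outside the cluster that fell without overlap and to the most abundant delta-1 member, which rose. RefSeq promoters, 250 bases before to 50 after a listed start in GRCm38.p6, were matched by symbol, and 25 promoters of 22 members were used. Clustered genes, Cdh2, Cdh13, Pcdh1 and Pcdh12, among others, were not in this set, so the shares below do not cover them. For Pcdh15, Cdh12 and Cdh18 the listed start lay 722525, 662187 and 487441 bases from the GENCODE gene start. Capitals mark the letters GGGCGG of a GC box, the letters CCAAT of a CCAAT box, and CAGGTG as the form of the E-box searched, each on both strands.
Pcdh19, chrX:133688944-133689243, minus strand: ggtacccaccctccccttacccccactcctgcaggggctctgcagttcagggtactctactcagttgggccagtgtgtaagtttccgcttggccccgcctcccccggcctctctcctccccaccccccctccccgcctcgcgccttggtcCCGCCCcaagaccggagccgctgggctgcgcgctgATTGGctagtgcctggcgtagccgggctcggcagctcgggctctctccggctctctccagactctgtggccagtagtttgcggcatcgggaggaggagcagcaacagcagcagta
Pcdh18, chr3:49757267-49757566, minus strand: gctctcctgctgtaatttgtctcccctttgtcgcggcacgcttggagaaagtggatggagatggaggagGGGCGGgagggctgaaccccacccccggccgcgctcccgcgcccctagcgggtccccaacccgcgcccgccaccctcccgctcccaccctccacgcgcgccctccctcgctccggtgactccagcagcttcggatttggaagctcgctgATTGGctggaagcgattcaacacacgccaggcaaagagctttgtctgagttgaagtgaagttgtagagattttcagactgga
Cdh24, chr14:54641315-54641614, minus strand: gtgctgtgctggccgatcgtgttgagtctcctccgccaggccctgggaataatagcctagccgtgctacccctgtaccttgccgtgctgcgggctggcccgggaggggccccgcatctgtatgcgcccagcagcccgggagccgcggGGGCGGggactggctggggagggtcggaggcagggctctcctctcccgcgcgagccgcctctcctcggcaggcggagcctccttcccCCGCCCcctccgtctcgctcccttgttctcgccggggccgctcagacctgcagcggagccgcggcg
Pcdh7, chr5:57717831-57718130, plus strand: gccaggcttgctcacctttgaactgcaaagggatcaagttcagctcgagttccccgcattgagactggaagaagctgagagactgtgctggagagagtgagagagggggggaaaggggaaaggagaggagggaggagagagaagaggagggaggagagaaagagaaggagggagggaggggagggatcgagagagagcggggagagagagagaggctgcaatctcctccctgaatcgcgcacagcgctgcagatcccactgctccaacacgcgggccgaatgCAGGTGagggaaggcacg
Pcdh19 and Pcdh18 each held 1 GC box and 1 CCAAT box, and Cdh24 held 2 GC boxes and no CCAAT box. Pcdh7 held neither of them in this window, but 1 E-box and 1 copy of TTTGAA, the letters of a cell-cycle homology region. GC boxes stood in 9 of the 25 member promoters (36.0%) and in 35.7% of 32851 promoters of the same length. CCAAT stood in 17 of 25 (68.0%), against 37.4% of all, and CAGGTG in 5 of 25 (20%), against 20.2%. Cdh7 and Pcdh9 had more than 1 promoter among the 25. Every Cdh7 promoter held CAGGTG, and the overlapping Pcdh9 windows held the same CCAAT. The 25 also cover members without a UMI, such as Cdh7, Cdh8, Cdh9 and Cdh20. TATAAA (8.0% of member promoters, 13.6% of all), TTTGAA (12% and 17.9%) and GGAATG, the TEAD core (12% and 14.7%), were searched in the same way. These letters overlap in none of the 4 promoters printed, and the matches describe sequence only.

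The clustered protocadherins were low singly. Of the 35 beta and gamma genes tested, 26 were called higher at 39°C, where 31.5% of all genes were. The 22 beta genes have no introns in their coding part, and for 21 of the 22 over 95% of the 50-base words in the last 500 bases were unique to the gene, Pcdhb21 excepted, so that reads can be assigned to single genes. Their summed level was 6.18 ± 0.363 CPM at 37°C and 13.8 ± 1.09 at 39°C (SD, n = 4). Of 15 beta genes tested, 10 were higher, 0 were lower by edgeR at an adjusted p under 0.05, and 5 did not pass. Beta genes of few UMIs passed the filter on low counts through the temperature at which they were high, so the count is a description of these 15. The genes at the 3′ end of the cluster, Pcdhb16 to Pcdhb22, were the most abundant, together with Pcdhb5 and Pcdhb7.

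Pcdhb19 showed the largest change of the members above 1 CPM at 39°C. It gave 0.411, 0.388, 0.210 and 0.386 CPM at 37°C (39 UMIs in all) and 1.93, 1.48, 1.52 and 1.31 CPM at 39°C (150 UMIs). The ranges did not overlap, and the log2 fold change was 2.12 (SE 0.237, edgeR adjusted p 2.0e-07). Pcdhb4, the other member past the limits of size, rested on 1 UMI at 37°C and 13 at 39°C. Its ratio was 15.1 with a 95% counting interval of 2.27 to 643 (exact binomial on the split of UMIs, counting error only). It averaged under 1 UMI per library at 37°C and passed the filter only through its counts at 39°C, so that its place past the limits of size follows from the filter and is given as a description. Pcdhb17, the most abundant beta gene, gave 1.61, 1.43, 2.28 and 1.83 CPM at 37°C and 3.06, 3.10, 3.19 and 4.24 at 39°C (log2 fold change 0.93, edgeR adjusted p 3.2e-05). Pcdhb22 gave 0.960, 0.853, 0.982 and 0.807 CPM and then 2.38, 1.89, 1.88 and 2.16 (log2 fold change 1.18, edgeR adjusted p 3.4e-06). Neither gene overlapped between the temperatures. Pcdhb21 had means of 1.02 and 1.83 CPM (log2 fold change 0.82, adjusted p 0.00078), but it overlaps Pcdhb22, and only 10.0% of the 50-base words in its last 500 bases are found nowhere else among the annotated transcripts, so its level is uncertain.

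Gamma protocadherins join a variable first exon to 3 shared exons, and members of the A, B and C types differ in that first exon. Of 21 gamma genes, 17 had no 50-base word in their last 500 bases that was unique to them, so their counts depend on reads from the unshared first exon, and levels of single gamma genes are uncertain. Their summed level was 22.5 ± 1.68 CPM at 37°C and 43.9 ± 2.56 at 39°C (SD, n = 4). Of 20 tested, 16 were higher and 4 did not pass, and 0 were lower by edgeR at an adjusted p under 0.05. Of all genes tested, 31.5% were higher and 30.5% lower.

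The 3 C-type genes, which in many neurons are expressed without the promoter choice of the other types, carried 24.7 of the 43.9 CPM that could be counted at 39°C. All 3 were higher, where 31.5% of all genes were, a share that also applies to the A and B types below. Pcdhgc4 gave 5.28, 4.96, 5.43 and 4.49 CPM at 37°C and 10.1, 10.1, 9.42 and 10.2 at 39°C (log2 fold change 0.98, SE 0.080, edgeR adjusted p 2.7e-09). Pcdhgc5 gave 4.94, 4.26, 4.63 and 4.35 CPM and then 8.74, 8.71, 7.82 and 8.71 (0.90, SE 0.084, edgeR adjusted p 1.7e-08). The values of both genes at 39°C lay well clear of those at 37°C. Pcdhgc3 gave 2.88, 3.06, 2.91 and 3.37 CPM and then 8.28, 5.6, 5.66 and 5.59, with the library of few cells highest. The change in Pcdhgc3 was 1.01 on the log2 scale with that library (edgeR adjusted p 9.6e-07) and 0.87 without it. Of the A type, 9 of 12 tested genes were higher, led in level by Pcdhga12, with 3.05, 2.33, 2.63 and 2.04 CPM and then 6.18, 4.81, 5.52 and 4.43 (1.04, edgeR adjusted p 1.1e-06). Of the B type, 4 of 5 tested genes were higher, with Pcdhgb4 at 1.07 ± 0.155 and 2.36 ± 0.112 CPM (SD, n = 4; log2 fold change 1.15, edgeR adjusted p 1.6e-06), and neither Pcdhga12 nor Pcdhgb4 overlapped. Pcdhgb2 had means of 0.806 and 0.850 CPM and did not pass (adjusted p 0.74).

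The alpha cluster gave almost no counts. Its 14 genes had 2 UMIs in all, both at 37°C, in Pcdha8 and Pcdha9. In GENCODE M21, 13 of the 14 had no unique 50-base word in the last 500 bases, since alpha transcripts share their constant 3′ exons, and reads shared by several genes are not counted by Cell Ranger. The counts therefore do not separate absent alpha transcripts from transcripts read only in the shared exons. The 35 members outside the clusters were not limited in this way, with 99.8% or more of such words unique.

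**Figure D2:**
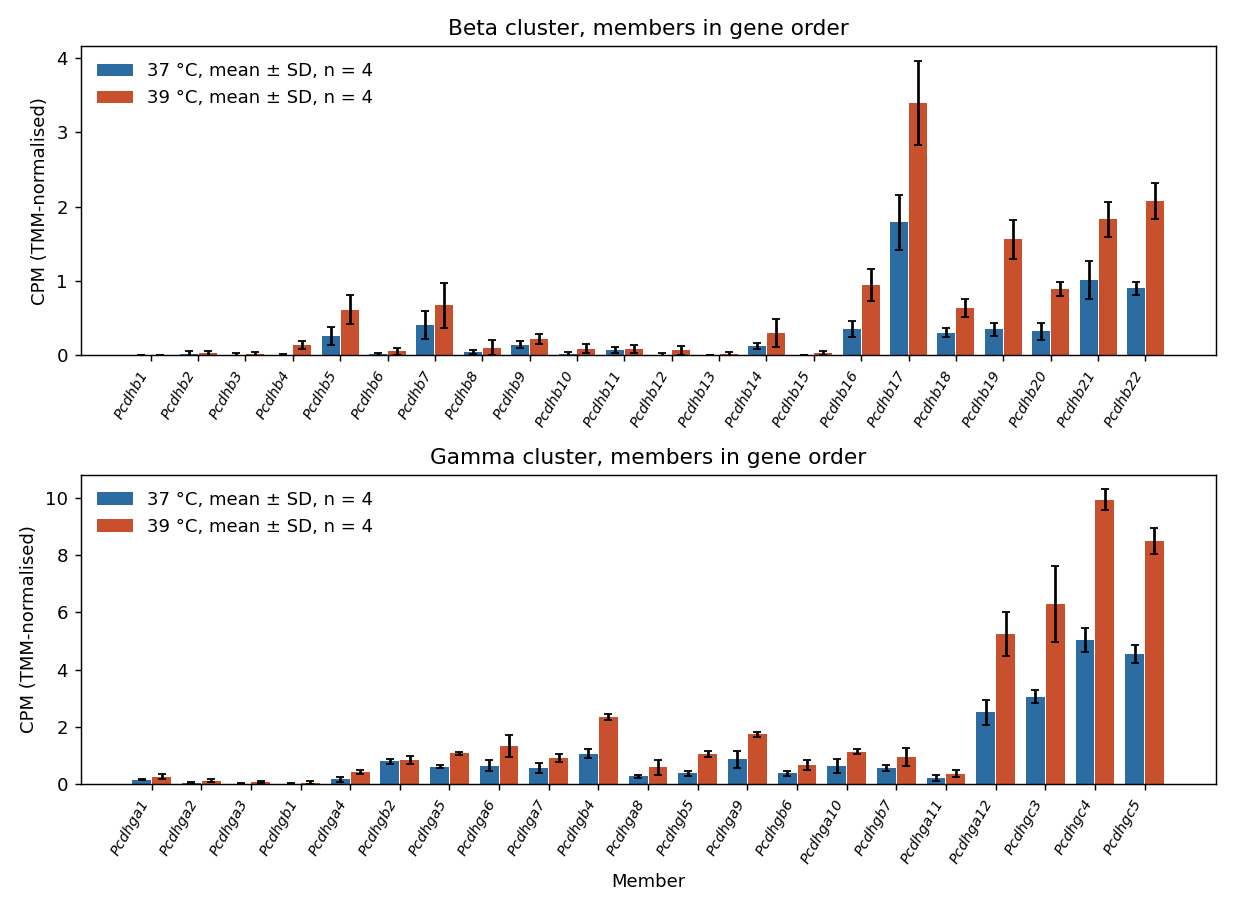
Mean CPM ± SD (n = 4 libraries) of the beta genes (upper) and gamma genes (lower) in the order in which they lie along the cluster, with blue for 37°C and orange for 39°C. The tallest bars stand towards the 3′ end in both panels, at Pcdhb17 with 1.79 and 3.40 CPM and at Pcdhgc4 with 5.04 and 9.94.

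Since phase and temperature were closely tied in these libraries, the comparison was repeated among cells scored as G1. G1 cells made up 20.6% to 28.7% of the libraries at 37°C and 82.5% to 85.4% at 39°C, and no member is among the genes used to score phase. Only S and G2M genes were scored, so G1 cells are those scored as neither. Resting cells were not told apart from cycling G1 cells, and whether G1 cells of the temperatures match in this was not tested. Of 47 members tested in G1 cells (14712 genes), 5 were higher and 3 lower by edgeR at an adjusted p under 0.05, where 24.8% and 22.4% of all genes were higher and lower. Only Pcdhb19 passed the limits of size, higher at 39°C, where 1.04% and 1.5% of all genes did so upward and downward. The G1 sums at 37°C were small, from 397 to 709 cells per library, and a member that did not pass here is not shown to have lost its difference. When phases were scored within each library, 16 of 48 members tested were higher in G1 cells and 3 lower by edgeR, where 28.1% and 26.3% of all genes were higher and lower.

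Cdh13 remained the clearest rise in G1 cells, with 112, 120, 102 and 104 CPM at 37°C and 247, 250, 243 and 252 at 39°C (log2 fold change 1.18, SE 0.055, edgeR adjusted p 1.1e-13). The C-type genes Pcdhgc4 (0.95), Pcdhgc3 (0.84) and Pcdhgc5 (0.61) rose with edgeR adjusted p-values of 1.1e-06, 0.00045 and 0.0003, and the 4 libraries of each temperature did not overlap. Pcdhb19 gave 0.410, 0.558, 0.172 and 0.366 CPM, from 9 UMIs, and then 2.15, 1.66, 1.73 and 1.55 (log2 fold change 2.19, edgeR adjusted p 4.5e-05). Of the 3 that fell, Pcdh19 gave 189, 209, 202 and 202 CPM and then 130, 128, 139 and 137, or -0.58 on the log2 scale (edgeR adjusted p 2.8e-09). Pcdh18 gave 12.4, 11.9, 12.8 and 13.0 CPM and then 5.44, 5.71, 6.02 and 5.59 (-1.13, edgeR adjusted p 6.5e-09). Both delta-2 genes were separated by temperature in every library. Pcdh9 fell less clearly, at -0.74 on the log2 scale (edgeR adjusted p 0.017), which was -0.52 with an adjusted p of 0.13 without replicate 3 of 37°C.

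Several members called in all cells had smaller values among G1 cells. Pcdhb17 had a log2 fold change of 0.14 (adjusted p 0.61), Pcdhga12 of 0.38 (0.095), Pcdh7 of 0.12 (0.28), Cdh24 of -0.08 (0.77) and Pcdhb21 of -0.02 (0.96). For each of the 5, libraries of the 2 temperatures overlapped. Pcdhb22 (0.56, edgeR adjusted p 0.071), Pcdhgb4 (0.55, 0.054) and Cdh6 (0.18, 0.62) were also not called in G1 cells. Part of these values depended on how phase was scored. With phases scored within each library, Pcdhb17 (0.53, edgeR adjusted p 0.015), Pcdhga12 (0.55, 0.0038) and Pcdh7 (0.25, 0.017) were called higher in G1 cells, as were Pcdhb22 (0.72, 0.011) and Pcdhgb4 (0.86, 0.0027), and Cdh2 was called lower (-0.29, 0.0027), while Cdh24 (-0.17, 0.37) and Pcdhb21 (0.25, 0.39) were not called. Cdh2 had -0.19 with an adjusted p of 0.080, which was 0.0017 with a log2 fold change of -0.28 without replicate 1 of 39°C. Of the 33 beta and gamma genes tested in G1 cells, 4 were called higher, where 24.8% of all genes were. The summed level of beta and gamma genes in G1 cells was 39.9 ± 4.26 CPM at 37°C and 60.6 ± 3.24 at 39°C (SD, n = 4), against 28.7 ± 1.82 and 57.7 ± 3.41 in all cells.

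**Figure D3:**
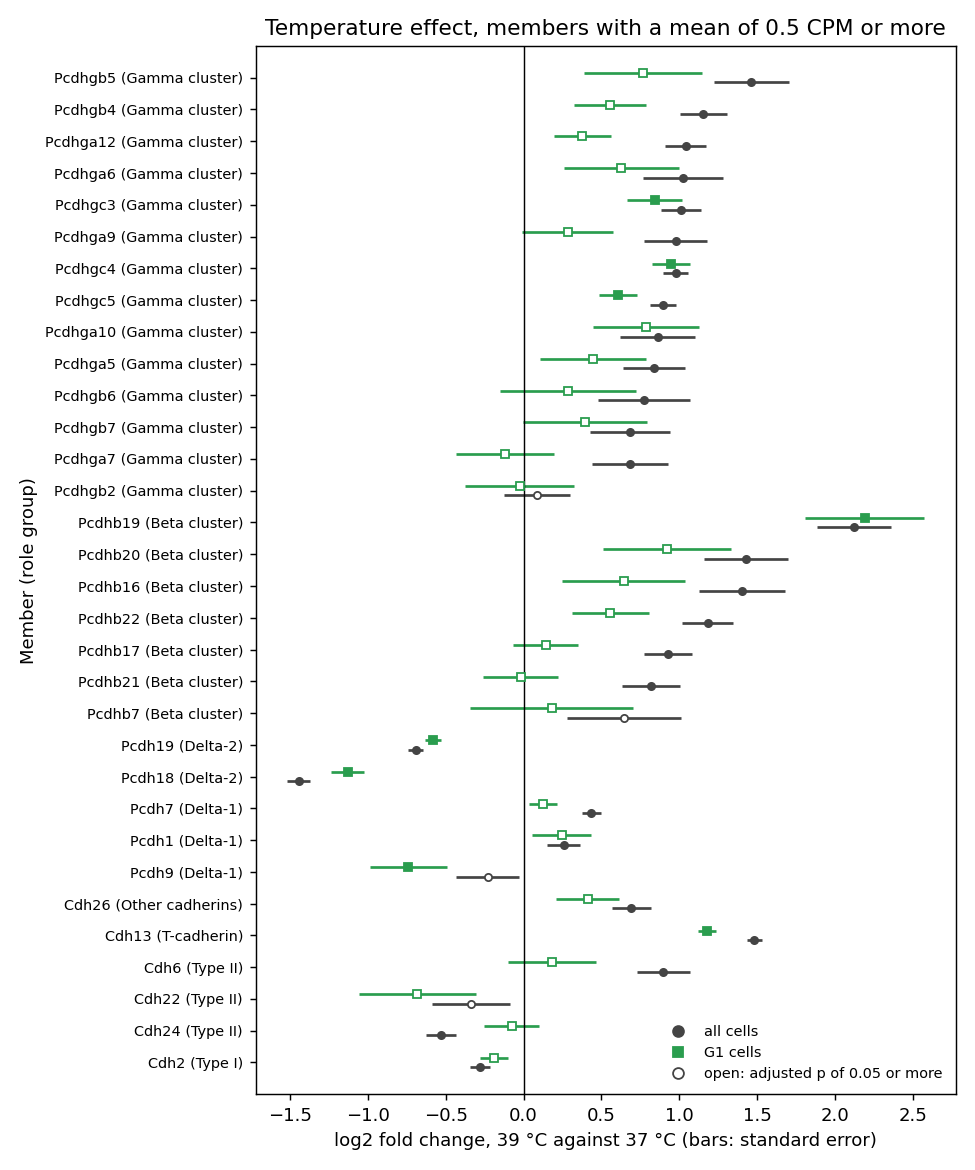
Log2 fold change of 39°C against 37°C with its standard error for the 32 tested members with a mean of 0.5 CPM or more, grouped by role, in all cells (grey circles) and G1 cells (green squares), filled where the adjusted p was under 0.05. Cdh13, Pcdhb19, Pcdh18 and Pcdh19 keep their sign and their call in both, and the G1 values of Pcdhb17 and Pcdhb21 are 0.14 and -0.02, which were 0.53 and 0.25 with phases scored within each library.

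The members were next compared among phases within the 4 libraries at 37°C, with library as a block. Of 43 tested (14205 genes), 1 was higher and 12 lower in G2M than in G1 cells, where 23% and 21.7% of all genes were higher and lower. Between S and G1 cells, 4 were higher and 8 lower, against 23.8% and 21.6% of all genes. Of 29 beta and gamma genes tested, 8 were called lower in G2M than in G1 cells.

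Cdh24 showed the largest S-phase rise among members above 1 CPM, with 3.21, 4.61, 3.23 and 4.12 CPM in G1 and 9.0, 5.59, 8.98 and 7.41 in S cells (log2 change 1.06, SE 0.169, edgeR adjusted p 8.4e-08). Pcdh18 gave 12.2, 11.8, 12.6 and 12.7 CPM in G1 and 18.9, 17.1, 18.6 and 19.6 in S cells (0.60, edgeR adjusted p 5.9e-08). Cdh2 gave 36.3, 32.1, 30.6 and 33.0 CPM in G1 and 46.3, 44.7, 45 and 42.1 in S cells (0.43, edgeR adjusted p 7.9e-09). For all 3, S cells lay above G1 cells in each of the 4 libraries. Pcdh19 was higher by 0.17 in S and by 0.13 in G2M cells (edgeR adjusted p 2.9e-06 and 0.00046), a small change at a level near 200 CPM. The call in G2M cells was lost without the library block (edgeR adjusted p 0.058).

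The members lower outside G1 included several that were higher at 39°C. Cdh13 gave 110, 119, 101 and 102 CPM in G1 cells and 83.2, 70.9, 74.1 and 73.8 in G2M cells, a log2 change of -0.51 (edgeR adjusted p 4.0e-18), and -0.40 in S cells (2.1e-13). Pcdhb17 gave 2.81, 2.21, 4.59 and 3.59 CPM in G1 and 1.34, 0.716, 1.10 and 1.02 in G2M cells (-1.64, edgeR adjusted p 2.5e-07). Pcdhb21 was lower by -1.56 in G2M and -1.20 in S cells, with edgeR adjusted p-values of 9.6e-05 and 0.0016. Each of these genes was lower in G2M than in G1 cells in all 4 libraries. Cdh6 was lower in G2M cells (-1.16, edgeR adjusted p 0.014), a call lost without replicate 2 (-0.49, adjusted p 0.43), and Pcdh9 was lower in S cells (-0.88, edgeR adjusted p 0.0045). The C-type genes and Pcdhb19 were not called between phases: their log2 changes from G1 to G2M were -0.07 for Pcdhgc4, -0.33 for Pcdhgc3, -0.31 for Pcdhgc5 and -0.18 for Pcdhb19.

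The temperatures were also compared within S cells and within G2M cells, 2 fits chosen after the values above were known. At 39°C these phases held only 115 to 423 and 29 to 187 cells per library. In S cells 8 of 40 members tested were higher and 2 lower by edgeR at an adjusted p under 0.05, where 20.1% and 23.4% of all genes were. In G2M cells 5 of 36 were higher and 2 lower by edgeR, where 13.2% and 16.5% of all genes were. Cdh13 (1.39 in S, 1.18 in G2M), Pcdh19 (-0.61 and -0.78) and Pcdh18 (-1.51 and -1.39) were called in both, with the direction they had in G1 cells. Pcdhgc5 (1.21 and 1.19), Pcdhgc3 (0.65 and 0.94) and Pcdhga12 (0.86 and 1.14) were also called in both. Pcdhb19 was called in neither. Its log2 fold change was 0.06 in S cells, from 16 UMIs at 37°C and 4 at 39°C (edgeR adjusted p 0.96). In G2M cells it was 0.98, from 14 and 3 UMIs (edgeR adjusted p 0.52), so its rise in all cells and G1 cells was not seen to hold in these phases. In an interaction fit over 24 sums, the S against G1 change differed between the temperatures for 2 of 42 members, where 9.95% of all genes did so. These were Cdh13, with a difference of 0.24 (39°C minus 37°C, edgeR adjusted p 0.0047), and Cdh2, with 0.33 (adjusted p 0.024). Cdh2 had means of 33.7 and 29.6 CPM in G1 cells of 37°C and 39°C and of 43.7 and 50.4 in S cells, on the total of each sum. For the G2M against G1 change, 0 of 42 members passed by edgeR, where 7.06% of all genes did.

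**Figure D4:**
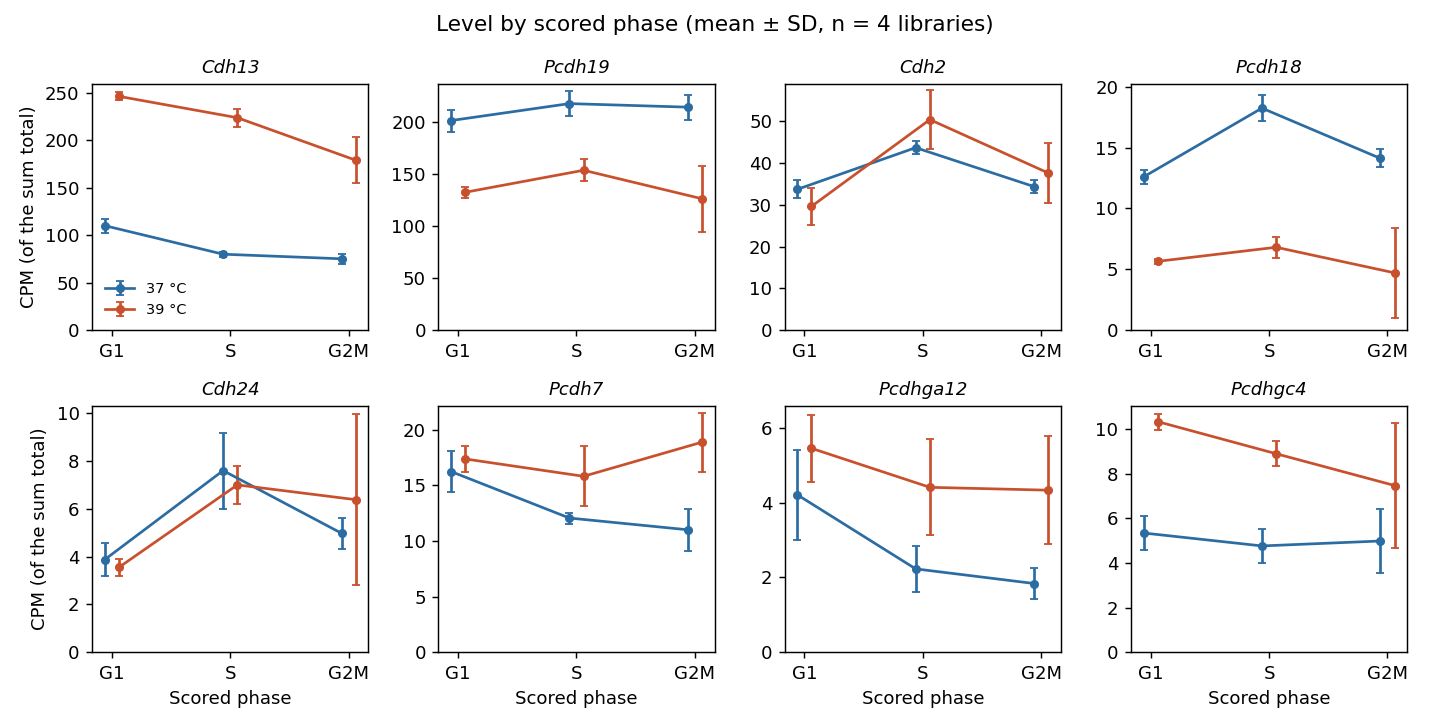
Mean CPM ± SD (n = 4 libraries) of 8 members by scored phase, with blue for 37°C and orange for 39°C, as CPM on the total of each sum, and with axes from 0. Cdh13 lies higher and Pcdh19 and Pcdh18 lower at 39°C in every phase, while Cdh2 has means of 33.7 and 29.6 CPM in G1 and 43.7 and 50.4 in S cells, and the bars of the G2M sums at 39°C are wide.

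To see whether changed sums came with a changed number of cells that held a transcript, every cell was thinned to 5000 UMIs, which left out 668 shallower cells at 37°C and 1668 at 39°C. Cdh13 was then seen in 31.7% to 37.1% of cells per library at 37°C and 64.6% to 66.7% at 39°C. Pcdh19 was seen in 58.9% to 64.0% and 43.2% to 45.8%, and Pcdh18 in 6.29% to 7.33% and 2.41% to 3.20%. The ranges of these 3 genes did not overlap between the temperatures. Any beta gene was seen in 2.38% to 3.00% of cells at 37°C and 5.91% to 7.48% at 39°C, and any gamma gene in 10.0% to 11.4% and 17.4% to 20.3%. Cdh2 ranged from 16.3% to 19.1% and from 13.3% to 16.3%. Pcdh7 was seen in 5.32% to 5.76% of cells at 37°C and 6.84% to 7.86% at 39°C, without overlap. Without thinning, the means of Cdh13 were 60.1% and 81.9%, those of Pcdh19 83.7% and 62.7%, those of Pcdh18 16.4% and 5.74%, those of Cdh2 36.7% and 26.4%, and those of Pcdh7 13.4% and 13.9%. The means of any beta gene were 7.08% and 12.8% and those of any gamma gene 24.1% and 34.9%. The culture holds no cell type known to lack these genes, so no background share from free RNA could be measured, and the shares are of cells with a UMI and not of expressing cells.

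**Figure D5:**
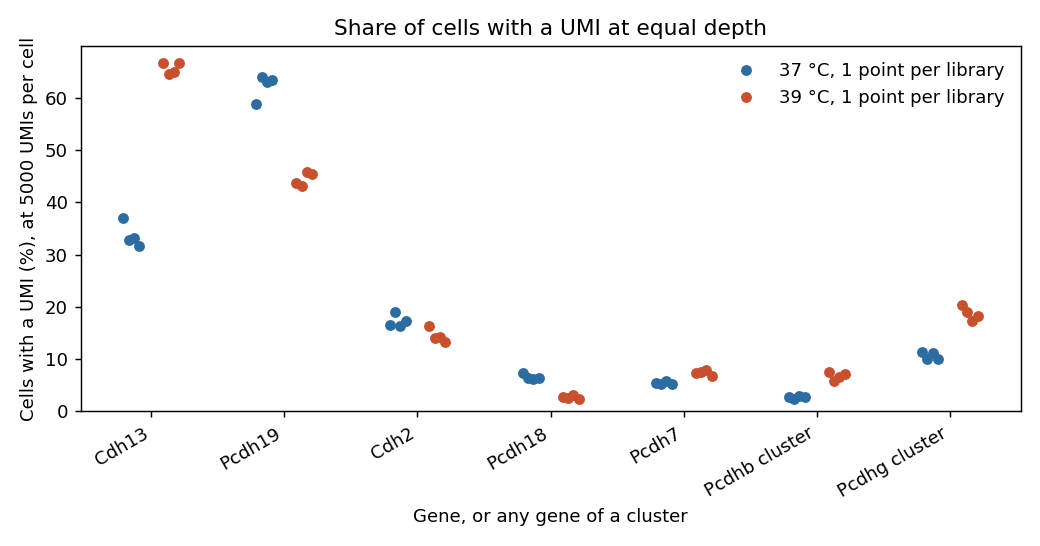
Share of cells with at least 1 UMI of 5 members, or of any gene of the beta (Pcdhb) or gamma (Pcdhg) cluster, after thinning to 5000 UMIs per cell, one point per library. Cdh13 rises from at most 37.1% to at least 64.6%, and Pcdh19 falls from at least 58.9% to at most 45.8%.

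Genes that work with cadherins were counted from lists by role, in all cells, where 31.5% of all genes were higher and 30.5% lower. Of 10 catenins and linkers tested, 4 were higher and 3 lower (median log2 fold change -0.02). Arvcf, a p120-type catenin, rose from 22.3 ± 1.04 to 57.1 ± 2.20 CPM (SD, n = 4; log2 fold change 1.36), and Jup (plakoglobin) from 76.2 to 124 (0.71). Vcl, the actin linker vinculin, fell from 257 ± 4.42 to 114 ± 5.81 CPM (log2 fold change -1.18). Ctnnb1 (beta-catenin) had means of 124 and 115 CPM and an adjusted p of 0.067. The 3 calls held in G1 cells, at 1.15, 0.62 and -1.21.

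All 4 nectins, immunoglobulin-type partners of cadherin junctions, were called. Nectin4 rose from 16.7 ± 1.40 to 51.8 ± 3.73 CPM (1.64) and Nectin1 from 35.6 to 84.6 (1.25), while Nectin2 fell by 0.30. In G1 cells 2 of the 4 were called, both higher, where 24.8% and 22.4% of all genes were higher and lower. Nectin2 had a log2 fold change of -0.25 in G1 cells with an edgeR adjusted p of 0.12. Of the atypical and desmosomal cadherins, 15 of 26 had under 8 UMIs, and 2 of 11 tested rose and 4 fell. Fat1, a giant atypical cadherin, rose from 78.8 ± 3.79 to 182 ± 8.33 CPM (1.21), and Cdhr1, a photoreceptor cadherin, fell from 18.9 ± 1.27 to 7.32 ± 1.05 (-1.35). Clstn1 (calsyntenin-1) fell by 0.36. For protocadherin effectors, 5 of 10 rose and 4 fell: Ptk2 (focal adhesion kinase) and Ptk2b (Pyk2), kinases that clustered protocadherins bind, rose by 0.84 and 1.13, and Abi1 of the WAVE complex by 0.39. For each partner gene named as risen or fallen, the libraries of 37°C and 39°C were fully apart in all cells.

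Among 12 factors known at clustered protocadherin promoters (CTCF, cohesin, DNA methylation), 2 rose and 7 fell in all cells, at a median log2 fold change of -0.22. In G1 cells 3 were higher and 3 lower at a median of 0.08, where 24.8% and 22.4% of all genes were called. Dnmt3a, a de novo DNA methyltransferase, rose from 35.3 ± 0.562 to 67.0 ± 1.76 CPM (0.92), while the cohesin subunits Rad21 (203 ± 4.01 to 122 ± 4.16) and Smc3 (351 ± 5.61 to 217 ± 6.66) fell by 0.74 and 0.70. In G1 cells Dnmt3a was still higher (0.73) and Smc3 lower (-0.28), whereas Rad21 had a log2 fold change of 0.12 and an adjusted p of 0.052. Of 8 repressors of Cdh1, 4 rose and 3 fell, with Snai1 from 7.77 to 13.3 CPM (0.77), Snai3 from 0.820 to 1.68 (1.01) and Zeb2 from 58.4 to 84.1 (0.53). Of 7 genes of cadherin cleavage, 4 rose and 1 fell, with Psen2 at 0.60, Furin at 0.42 and Ncstn at 0.27, and none of these 3 passed in G1 cells (adjusted p 0.54, 0.052 and 0.46). Adipor1, an adiponectin receptor, rose by 0.13 in all cells, while Adiponectin itself (Adipoq) had under 8 UMIs. All values of these lists are log2 fold changes with edgeR adjusted p under 0.05 unless a p is given.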

How the data were processed

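The authors captured trypsinized cells with the Chromium Single Cell 3′ V3 kit, aligned reads to mm10 (the GRCm38 assembly) with Cell Ranger 3.0.1, per the labels, and deposited unnormalized UMI counts, whole numbers in a gene-by-cell matrix, for the 8 libraries. The annotation they counted against is not given in the sources used here. The members, role groups, partner lists and tests were chosen with earlier results of these data known.

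The study's limits on cells were applied: 15% of mitochondrial UMIs (334 cells were over it), 6000 detected genes (440 over) and 200 (29 below). Scrublet (scanpy 1.11.5) scored 1 cell over 0.5 and so did not work as a doublet caller, and leaving out the 396 highest-scoring cells was run as an alternative. Phases were scored with Seurat 5.3.0 (CellCycleScoring, 42 of 43 S genes and 52 of 54 G2M genes matched by letter case). Counts were summed per library, or per library and phase, and tested with edgeR 4.0.16 (R 4.3.3) over every gene averaging 1 count or more, with TMM scaling and Benjamini-Hochberg adjustment. The phase fit held 12 sums and the interaction fit 24. DESeq2 1.42.0, other scalings, filters and left-out libraries were alternatives. No library was a repeat of another: chi-square over degrees of freedom was 2.85 or more in each pair of one temperature. In a check on simulated counts for all cells, 141 of 200 genes changed by 0.5 and 160 of 200 changed by 1 on the log2 scale were recovered, with 9 of 15622 other genes called in each.

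Positions and shared sequence came from GENCODE M21 (GRCm38), matched by identifier for all 92 members, and promoters from RefSeq GRCm38.p6. Genes named in the text were those past the limits of size, the 12 with the highest mean CPM, the 5 largest rises and falls above 1 CPM in all cells, Cdh13, up to 3 per direction for each phase comparison above 1 CPM, and up to 3 per partner list. Other members with values were named after these were seen, to describe their role group.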

Additional observations from a re-analysis of the deposited data

Results flagged for a closer look

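In 76 groups of 4 libraries (19 named members, 2 temperatures, all cells and G1 cells), 9 had 1 library far from the other 3 by Dixon's limit of 0.829. Chance alone flags about 1 in 20 groups only where values are independent and normal. The groups of all cells and G1 cells share cells, and some rest on few UMIs, so 9 of 76 cannot be set against that rate. In all cells at 37°C, the flagged values were Pcdhb19 in replicate 3 (0.210 CPM) and Pcdhb4 in replicate 1 (0.0343 CPM, a single UMI). At 39°C, replicate 1, the library with the fewest cells, stood apart for Pcdhgc3 (8.28 CPM in all cells and 8.53 in G1 cells, the highest), Cdh24 (3.52 CPM, the lowest) and Pcdhb4 (0.227 CPM, the highest). Replicate 3 was lowest for Pcdhgc4 (9.42 CPM) and Pcdhgc5 (7.82 CPM), and replicate 4 was highest for Pcdhb17 (4.24 CPM). Without replicate 1 of 39°C, the log2 fold change was 0.87 for Pcdhgc3 and -0.49 for Cdh24 in all cells, and both passed the edgeR test.

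The S against G1 log2 change differed between the temperatures for Cdh13 (0.24) and Cdh2 (0.33, both 39°C minus 37°C) in the interaction fit, which was added after the phase values were known.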

How the results depend on the processing

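Of 1024 planned recalculations of named members' values, 966 kept their direction and side of the threshold, 24 fell short of it, 19 passed it and 15 turned direction. No value turned direction under the 3 other scalings (150 values). Counts differed most when only cells of 1 phase were summed. In S cells alone 8 of 40 members were higher and 2 lower, where 20.1% and 23.4% of all genes were. In G2M cells alone 5 of 36 were higher and 2 lower, where 13.2% and 16.5% of all genes were. In all cells 31 of 52 were higher and 4 lower, where 31.5% and 30.5% of all genes were. With the limits of size, 0 were higher in S or G2M cells, and 1 was lower in S cells. Shares of all genes were not counted for these limits in S and G2M cells. These sums held fewer cells. With edgeR's own expression filter 1 member passed the size limits upward (Pcdhb4 was not tested), and with a mitochondrial limit of 10%, 1 passed downward. With phases scored per library, G1 cells gave 16 members higher, Pcdhb17, Pcdhga12 and Pcdh7 among them, and 2 past the size limits upward, and 2 were higher in G2M than in G1 cells. Without a library block that count was 0, since Pcdh19 lost its call (edgeR adjusted p 0.058). With 1 library left out it ranged from 1 to 2; the count of members higher at 39°C ranged from 25 to 31 in all cells and from 5 to 6 in G1 cells. When phases were scored per library, 28.1% of all genes were higher in G1 cells. Shares of all genes were not counted for the other counts from changed filters, phase scoring, blocks or left-out libraries. The causes were not tested.

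Values that turned were, for 39°C against 37°C in S cells, Cdh2 (0.090), and in G2M cells Cdh2 (0.036), Cdh24 (0.42) and Cdh6 (-0.010). In G1 cells, Pcdhb21 turned without a filter on cells (0.045), without the upper gene limit (0.036), with phases per library (0.25) and when libraries were left out (-0.12 to 0.19), as did Cdh24 (-0.16 to 0.022) and Cdh6 (-0.030 to 0.53). Between phases, Pcdhb19 and Pcdhgc4 turned for S with phases per library (0.087 and 0.0022) and when libraries were left out (Pcdhb19 -0.39 to 0.31, Pcdhgc4 -0.18 to 0.084), and for G2M (Pcdhb19 -0.50 to 0.050, Pcdhgc4 -0.25 to 0.10).

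Replicate numbers did not pair the libraries: the deviations of same-numbered libraries correlated between -0.12 and 0.28 over 8358 genes, and 1 of 4 libraries at 37°C correlated best with its own number. With the replicate number as a block, 28 members were higher and 4 lower in all cells and 5 and 3 in G1 cells, and of the named members Pcdh1 lost its call (edgeR adjusted p 0.058). Shares of all genes were not counted for this block, so these counts only describe how the calls on members moved. Depth limits members under about 1 CPM, for which a change of 1 on the log2 scale can go uncalled.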
